A study of Bos taurus with 179 samples.

Results

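The genes described here are the BCL2 family genes of cell survival and cell death in single growing oocytes of cattle (Bos taurus). The list held 10 genes. A gene was taken if the study's own lists of expressed and lowly expressed genes pair its symbol with an Ensembl gene ID. That gave 9 of 10 genes, among 21218 gene IDs in the count table and 3608 IDs with a symbol. BCL2L10 had no paired ID in the lists used here and was not analysed here. The 9 genes have 3 roles. BCL2 (ENSBTAG00000019302), BCL2L1 (ENSBTAG00000006526) and BCL2L2 (ENSBTAG00000019692) favour survival. BAX (ENSBTAG00000013340), BAK1 (ENSBTAG00000000428) and BOK (ENSBTAG00000008711) are the effectors. BAD (ENSBTAG00000012511), BID (ENSBTAG00000013988) and BCL2L11 (ENSBTAG00000024105) are BH3-only genes.

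The BCL2 family sets whether the outer mitochondrial membrane stays closed. Effector proteins can form pores in it, which release cytochrome c and activate caspases through the apoptosome. Survival proteins bind and hold the effectors, and BH3-only proteins, so called because they share only a short homology motif with the family, either neutralise the survival proteins or activate the effectors. In the ovary the family is known for its part in the loss of germ cells and in the atresia of follicles.

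The oocytes came from abattoir ovaries, were freed from follicles and stripped of surrounding cells, and were sequenced singly from their polyadenylated RNA. The labels name no treatment, and neither the breed, the age nor the animal of an oocyte. Of 179 deposited oocytes, all but the 14 that the study left out were used, with diameters from 48.0 to 135 μm. They fall into 8 size groups: A (under 60 μm, n = 21), B (60 to 69 μm, n = 25), C (70 to 79 μm, n = 23), D (80 to 89 μm, n = 24), E (90 to 99 μm, n = 21), F (100 to 109 μm, n = 18), G (110 to 119 μm, n = 19) and H (over 120 μm, n = 14). Libraries were made in 2 replicates, replicate 1 with reads of 150 bp (97 oocytes) and replicate 2 with reads of 75 bp (68 oocytes), so replicate and read length cannot be told apart.

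An oocyte had between 277126 and 8038061 counts on genes, with a median of 1763520. For the tests, counts were added up over the oocytes of a group within a replicate, giving 16 sums, 2 for each size group. A level is given in CPM, counts per 1000000 counts of the normalised library. A CPM is a share of the counted RNA of an oocyte, so a smaller share and less of a transcript per oocyte cannot be told apart. Gene lengths were not used here, and levels are therefore compared between groups, not between genes. The sums are uneven. A single oocyte held 52.9% of all counts in F of replicate 1 and 46.6% in A of replicate 1, which has 3 oocytes. The oocyte markers BMP15, BCAR4, BTG4, ACTL8, AURKC and BNC1 together stood at 3230 to 9360 CPM over the 16 sums. Of 6 granulosa and theca markers, AMHR2, FSHR, CYP11A1, CYP17A1 and CCND2 had a median under 1 CPM, and so did 5 of 7 stroma and vessel markers and 4 of 4 blood and immune markers.

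BAD rose with oocyte size, whereas no other member passed the tests over size, and BCL2 and BOK were at or near 0. Of the 9 members, 7 passed the filter on low counts (BCL2 and BOK did not) and were tested among 14087 genes with edgeR's quasi-likelihood test and Benjamini-Hochberg adjustment, with the replicate as a block. Among the 8 size groups, 1 of 7 tested members differed, against 14.9% of all genes tested. A linear trend over size was called in 1 of 7, against 34.8% of all genes in either direction and 15.4% of all genes for a rise. The median slope of the 7 members was 0.06 log2 per 10 μm of diameter, and that of all genes tested was -0.02. Both calls were of BAD.

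**Figure D1:**
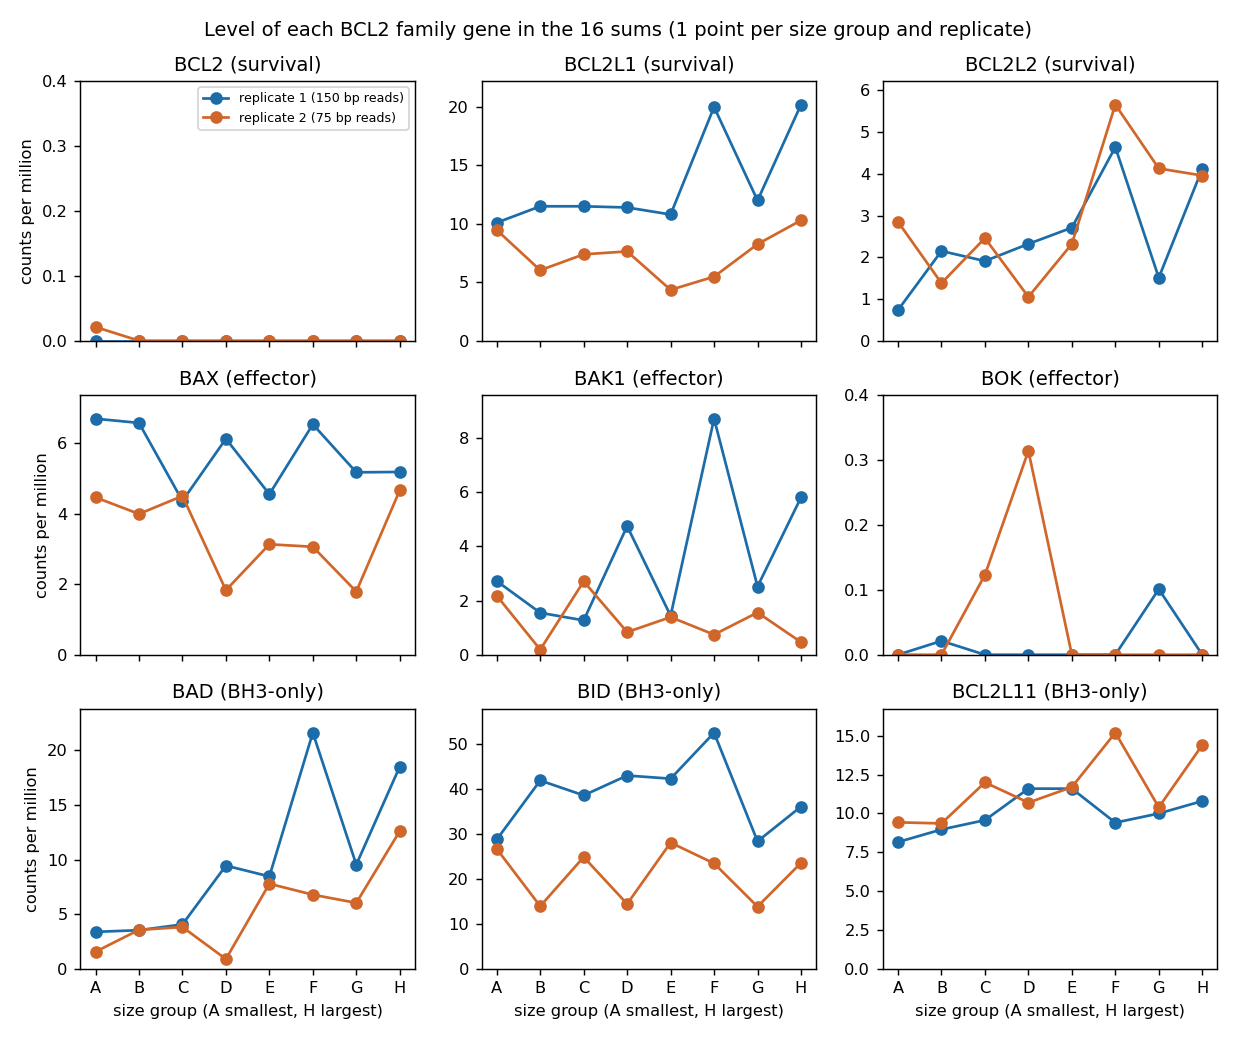
Level in CPM (vertical axis, from 0, own scale in each panel) of the 9 BCL2 family genes in size groups A to H (horizontal axis), with 1 point per size group and replicate. BAD stands at 3.38 and 1.56 CPM in A and at 18.5 and 12.6 CPM in H, and the panels of BCL2 and BOK stay below 0.4 CPM.

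Among the survival genes, BCL2, the founding member of the family, had 1 count in all the analysed oocytes together, in an oocyte of group A in replicate 2. The share of oocytes with a count was 0.606% (exact 95% interval 0.0153 to 3.33%). A total of 3 counts over all the oocytes would be 0.00833 CPM. BCL2 had 0 counts in the other 15 sums, and a difference over size was not detectable at this depth.

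BCL2L1, whose main product BCL-xL holds BAX and BAK1 in check, had a count in 98.8% of the oocytes (all but 2). Its level ranged from 10.1 CPM in A to 20.2 CPM in H over the groups of replicate 1 and from 4.35 CPM in E to 10.3 CPM in H in replicate 2. Replicate 1 was the higher in 8 of 8 groups. The highest group was H in both replicates, but in replicate 2 the level in A was already 9.47 CPM. Its slope was 0.06 log2 per 10 μm (SE 0.05, 95% interval -0.03 to 0.16; adjusted p = 0.288 by edgeR), which did not pass the test.

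BCL2L2, which encodes the survival protein BCL-w, came nearest to a call after BAD. In replicate 1 its level was 0.735, 2.15, 1.91, 2.32, 2.71, 4.64, 1.51 and 4.12 CPM in A to H. In replicate 2 it was 2.85, 1.38, 2.46, 1.05, 2.32, 5.66, 4.13 and 3.96 CPM. F was the highest group in both replicates, and the lowest was A in replicate 1 and D in replicate 2. The slope was 0.18 log2 per 10 μm (SE 0.08, 95% interval 0.02 to 0.34; adjusted p = 0.0727), past 0.05 without adjustment and not after it. The call depended on the setting. Without A of replicate 2 the slope was 0.30 (adjusted p = 0.0164), and without G of replicate 1 it was 0.22 (adjusted p = 0.0404). BCL2L2 was also called by DESeq2 on all sums (0.19, adjusted p = 0.033) and by edgeR with ComBat-seq counts of single oocytes (0.14, adjusted p = 0.0463), a fit that treats oocytes as replicates, while with all 179 oocytes its slope was 0.11.

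Of the effectors, BAX was found in most oocytes and BAK1 in fewer. BAX had a count in 90.3% of the oocytes, and its level ranged from 4.36 to 6.69 CPM over the groups of replicate 1 and from 1.79 to 4.66 CPM in replicate 2. Replicate 1 was the higher in 7 of 8 groups. The slope of BAX was -0.05 log2 per 10 μm (SE 0.06, 95% interval -0.17 to 0.07; adjusted p = 0.534).

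BAK1 differed widely between the sums. Its level in replicate 1 was 2.72, 1.55, 1.27, 4.75, 1.44, 8.72, 2.52 and 5.81 CPM in A to H, and in replicate 2 it was 2.18, 0.19, 2.71, 0.837, 1.39, 0.743, 1.56 and 0.466 CPM. In CPM the replicates stood furthest apart in D, F and H. In F of replicate 1, 1 oocyte held 88.5% of the BAK1 counts and stood at 17.5 CPM, while the median of the other oocytes of that sum was 1.2 CPM. BAK1 had a count in 59.4% of the oocytes. Its slope was 0.09 log2 per 10 μm (SE 0.10, 95% interval -0.12 to 0.31; adjusted p = 0.507), and the slope went from -0.05 to 0.18 as each sum was left out in turn.

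BOK, an effector that the survival proteins are thought to hold less tightly, had 12 counts in all. They came from 5 oocytes (3.03%, exact 95% interval 0.991 to 6.93%), with 1 count in B and 3 counts in G of replicate 1, and 2 counts in C and 6 counts in D of replicate 2. The highest level of a sum was 0.314 CPM. BOK did not pass the filter. In the fit without the filter its difference among the groups had an adjusted p of 0.875.

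The oocytes mostly carried counts of 1 or both of BAX and BAK1. Both had a count in 96 oocytes, BAX without BAK1 in 53, BAK1 without BAX in 2, and neither in 14. In group E, 4 of 21 oocytes had neither, and in A 1 of 21, at median totals of 1150073 and 2563427 counts per oocyte. The median number of members with a count per oocyte was 6 of 9, with a range of 2 to 8.

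BAD, whose protein binds survival proteins unless growth factor kinases such as AKT phosphorylate it, was the member that changed. In replicate 1 the level of BAD was 3.38, 3.53, 4.06, 9.44, 8.45, 21.6, 9.53 and 18.5 CPM in A to H. In replicate 2 it was 1.56, 3.56, 3.82, 0.889, 7.78, 6.78, 6.03 and 12.6 CPM. All sums of A, B and C lie at 4.06 CPM or below. All sums of E, F, G and H lie at 6.03 CPM or above, while D has 1 sum in each range. These ranges were read from the values themselves, and the share of all genes with such a gap was not counted. The low D sum, of replicate 2, held 17 BAD counts in 4 of 8 oocytes, among 19710852 counts in all. H of replicate 2 held 54 BAD counts in 4 oocytes, among 4467434 counts. From A to H the level rose 5.47-fold in replicate 1 and 8.04-fold in replicate 2.

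The trend of BAD was 0.35 log2 per 10 μm (SE 0.07, 95% interval 0.21 to 0.49; adjusted p = 0.000569 by edgeR). That is 1.28-fold per 10 μm (95% interval 1.16 to 1.41) and 5.81-fold (2.88 to 11.7) over the 72.2 μm between the mean diameters of A and H. It was called under each of the 24 alternatives tried, with slopes from 0.33 to 0.40 and, in the fits to sums, adjusted p from 5.9e-07 to 0.0424, the highest without the replicate block. The difference among the 8 groups was called with less margin (adjusted p = 0.0278). Without H of replicate 1 this adjusted p was 0.0512, without H of replicate 2 it was 0.0584, and with all 179 oocytes it was 0.0632. Without the replicate block it was 0.856, in a fit that called 0 of 14087 genes among the groups. The slopes of the replicates did not differ detectably (difference -0.02 log2 per 10 μm, replicate 2 minus replicate 1, 95% interval -0.30 to 0.27; adjusted p = 0.972).

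Single oocytes showed the same direction. The lowest, median and highest level of BAD over oocytes was 0, 1.53 and 6.59 CPM in A, and 3.89, 15.4 and 36.5 CPM in H. The medians in B to G were 3.23, 3.99, 5.79, 6.25, 11.1 and 9.68 CPM. These values pool the replicates, whose medians were 8.3 and 0.551 CPM in D and 7.45 and 3.85 CPM in E. The groups overlap widely, yet every oocyte of G and H had a BAD count, against 14 of 21 in A. In A that was 3 of 3 oocytes of replicate 1 and 11 of 18 of replicate 2, so replicate 1 alone shows no such difference. H had 10 and 4 oocytes in replicates 1 and 2. The tally below counts oocytes without a BAD count. Of these 24 oocytes, 20 were of replicate 2 and 4 of replicate 1, from 68 and 97 oocytes. As a description, Pearson's r of log2(CPM + 1) with diameter was 0.55 and Spearman's rho 0.56 over all the analysed oocytes, with each replicate centred on its own mean. Pearson's r was 0.58 in replicate 1 and 0.51 in replicate 2. Oocytes share a library batch and unnamed animals, so no p is given. The r of BAD with the log10 total count of an oocyte was -0.14.

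**Figure D2:**
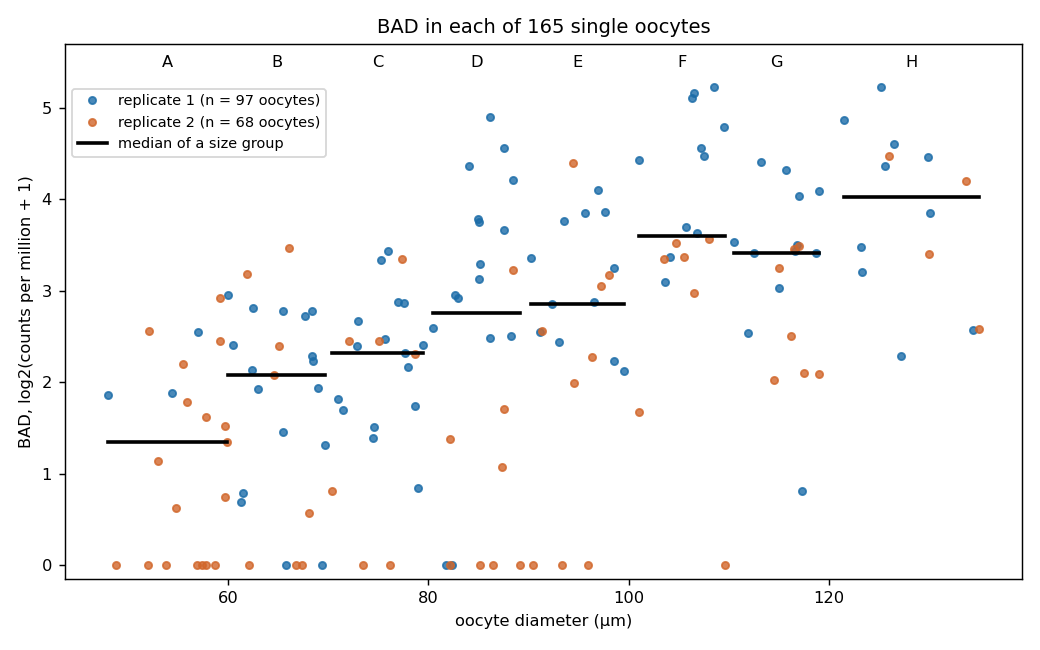
BAD level as log2(CPM + 1) (vertical axis) against oocyte diameter in μm (horizontal axis), with 1 point per oocyte, coloured by replicate (97 and 68 oocytes), and a black line at the median of each size group A to H. With both replicates together, the medians go from 1.53 CPM in A to 15.4 CPM in H, and the oocytes with 0 counts are in groups A to F.

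At an equal depth of 250000 counts per oocyte, BAD was found in 33.3% of the oocytes of A (7 of 21, exact 95% interval 14.6 to 57.0%), 56.0% of B, 65.2% of C, 58.3% of D, 61.9% of E, 94.4% of F, 73.7% of G and 85.7% of H (12 of 14, 57.2 to 98.2%). These shares pool the replicates. In replicates 1 and 2 the share was 33.3% and 33.3% in A, 81.2% and 12.5% in D, and 80.0% and 100.0% in H. Pearson's r of BAD with diameter was 0.34 and Spearman's rho 0.36 at this depth, lower than with all counts. The slope of BAD from sums in which each oocyte weighs the same was 0.34 log2 per 10 μm (adjusted p = 0.00026). The single deep oocyte of F in replicate 1 held 54.7% of the BAD counts of that sum at 26.8 CPM, and the other oocytes of the sum had a median of 20.9 CPM. Without that sum the slope was 0.35 (adjusted p = 0.000856).

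Markers of other cells were measured beside this rise. Summed over the 6 granulosa and theca markers, the level was 14.7 and 4.4 CPM in A, 138 and 23.9 CPM in F, and 45.4 and 6.52 CPM in H, in replicates 1 and 2. Most of it was CLU, at 13.8 and 3.21 CPM in A and at 45.3 and 4.66 CPM in H, with a called slope of 0.19 log2 per 10 μm (adjusted p = 0.000755). The receptor gene FSHR, specific to granulosa cells, had a slope of -0.37 (adjusted p = 0.117) and a median of 0.163 CPM. The collagen gene COL1A2 also rose (0.31 log2 per 10 μm, adjusted p = 0.00307), from 0.147 and 1.67 CPM in A to 9.38 and 8.39 CPM in H. ACTA2, a smooth muscle actin and the other stroma and vessel marker tested, had a slope of -0.15 (adjusted p = 0.195). None of the 23 markers of the lists was at 0 in every sum. The part of other cells in the BAD values was not tested.

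BID, which caspase-8 cleaves into an active fragment, had no called difference over size. In replicate 1 it was 28.7, 41.8, 38.5, 42.9, 42.2, 52.4, 28.3 and 36.0 CPM in A to H, and in replicate 2 it was 26.6, 13.9, 24.8, 14.4, 28.0, 23.4, 13.8 and 23.5 CPM. Replicate 1 was the higher in 8 of 8 groups, with means of 38.8 and 21.1 CPM, and A is the group where the replicates are closest. The slope was -0.01 log2 per 10 μm (SE 0.04, 95% interval -0.09 to 0.07; adjusted p = 0.924). Over the span from A to H that is 0.97-fold, with a 95% interval of 0.652 to 1.44.

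BCL2L11, which encodes BIM, a BH3-only protein that binds all the main survival proteins, was the steadiest between replicates. Its level ranged from 8.16 to 11.6 CPM over the groups of replicate 1 and from 9.36 to 15.2 CPM in replicate 2, and it had a count in 98.2% of the oocytes. Replicate 1 was the higher in 1 of 8 groups. The slope was 0.06 log2 per 10 μm (SE 0.04, 95% interval -0.03 to 0.14; adjusted p = 0.276).

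Counts of 1 gene over those of another within a sum are free of library size, and only their change between sums has a meaning. The ratio of BAD to BCL2L1 counts was 0.336 and 0.165 in A, and 0.915 and 1.23 in H, in replicates 1 and 2. It was 0.73 or more in all sums of E to H and 0.591 or less in those of A to C, while D stood at 0.83 and 0.116, the latter the lowest of the 16 sums. The ratio of BAX to BCL2L1 went from 0.664 in A to 0.256 in H in replicate 1. In replicate 2 it was 0.471 in A and 0.455 in H, and ranged from 0.216 in G to 0.72 in E, a wide difference between the replicates. The ratio of BAD to BCL2L1 holds the same BAD counts as the levels above. These ratios were not tested.

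**Figure D3:**
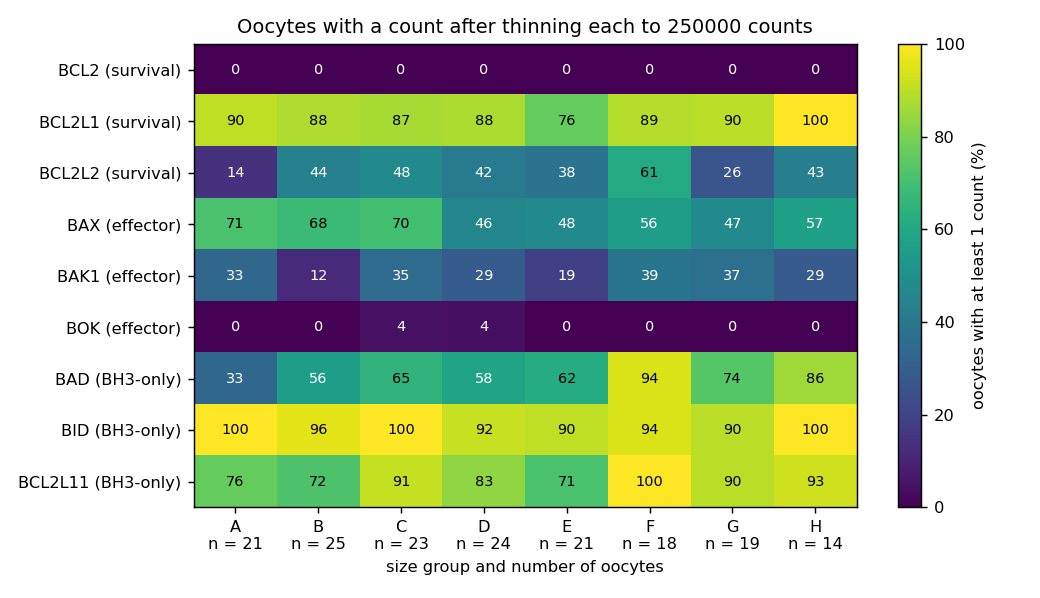
Percentage of oocytes with at least 1 count of each of the 9 BCL2 family genes (rows) in size groups A to H (columns, with the number of oocytes) after each oocyte was thinned to 250000 counts. With both replicates together, BAD goes from 33.3% in A to 85.7% in H, BID stays at 89.5% or above, and BCL2 is at 0 throughout.

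A gene was called expressed in a group if fewer than 50% of its oocytes had 0 counts. By this rule 6 of 9 members were expressed in all 8 groups (BAD, BAX, BCL2L1, BCL2L11, BCL2L2 and BID), against 56.9% of the 17969 gene IDs with a count. The members were taken from the study's lists of expressed and lowly expressed genes. Their share is thus partly set by how they were taken. BAK1 was expressed in A, B, C, D and G and not in E, F and H, where 7 of 21, 9 of 18 and 7 of 14 oocytes had a count. F and H lie exactly at the threshold, and BAK1 counts as expressed there if a share of 50% at 0 is still allowed. E, F and H also have the lowest median totals (1150073, 923622 and 1457610 counts), and Spearman's rho of having a BAK1 count with the total was 0.41. At 250000 counts per oocyte BAK1 was expressed in no group, with a count in 3 of 25 oocytes of B (the lowest share) and in 7 of 18 of F (the highest). BCL2 and BOK were expressed in no group. In replicate 2 alone, 4 of 9 members (BAX, BCL2L1, BCL2L11 and BID) were expressed in all groups. At 250000 counts per oocyte, 3 of 9 members (BCL2L1, BCL2L11 and BID) were expressed in all groups. The share of all gene IDs was not counted for replicate 2 alone or at this depth.

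Successive size groups were then compared, larger against smaller oocytes, to ask at which step of growth a gene changes. None of the 7 tested members was called by edgeR in any of the 7 comparisons. The background was low for most of them: 0.0142% of all genes tested were called for A vs B, 0.135% for AB vs C, 0.0% for C vs DE, 0.0% for D vs E, 0.497% for DE vs F, 3.88% for F vs G and 0.0071% for G vs H. Where edgeR called 0 genes, 780 genes (C vs DE) and 469 genes (D vs E) had an unadjusted p under 0.05, and DESeq2 called 17 and 0. For DE vs F and F vs G, DESeq2 called 3.59% and 14.0% of all genes. The edgeR shares of both comparisons also moved with the sum left out. DESeq2 called 0 members in each of the 7 comparisons.

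Without adjustment, p fell under 0.05 for BAD and BCL2L2 in DE vs F and for BID in F vs G. BAD was higher in F by 1.09 log2 (95% interval 0.04 to 2.14; adjusted p = 0.295) and BCL2L2 by 1.28 log2 (0.04 to 2.52; adjusted p = 0.296). For BID the difference from F to G was -0.83 log2 (-1.58 to -0.08; adjusted p = 0.153), lower in G in both replicates. The difference of BAD was positive in 6 of 7 comparisons and -0.74 log2 (-2.01 to 0.53) in F vs G. None of these differences of BAD passed the adjusted test.

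**Figure D4:**
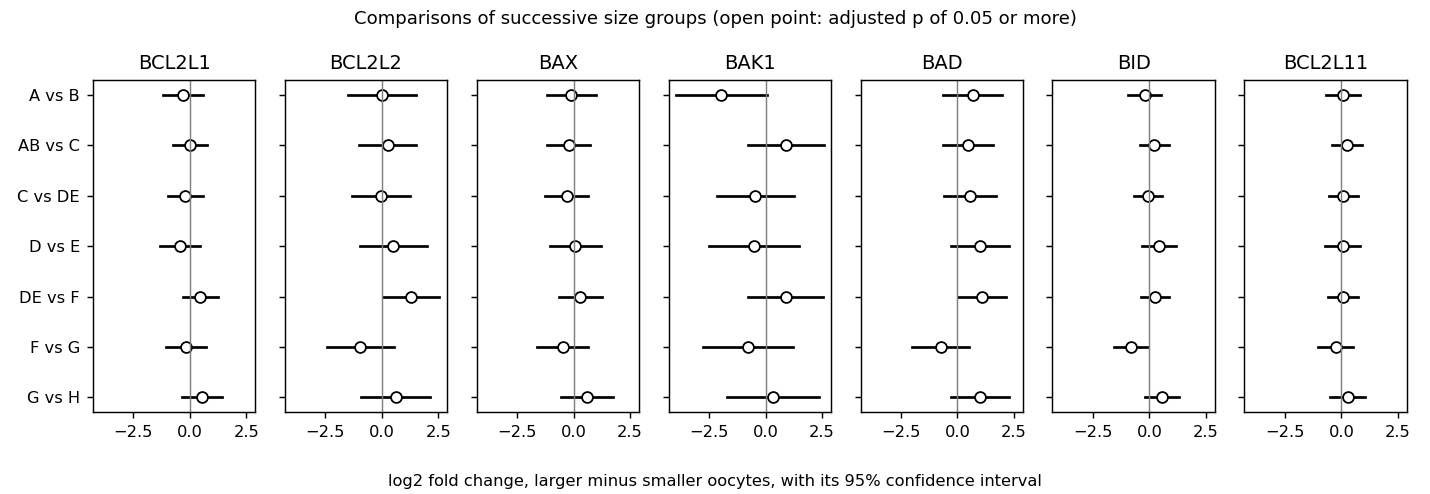
Log2 fold change of larger against smaller oocytes (horizontal axis, point with its 95% confidence interval) in 7 comparisons of successive size groups (rows) for the 7 members tested (panels). All points are open, that is, none passed an adjusted p of 0.05, and 6 of 7 points of BAD lie above 0.

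No member had a slope that differed between the replicates, and 0.0% of all genes tested did by edgeR, with 1835 at an unadjusted p under 0.05 and 1.97% of genes called by DESeq2. The smallest adjusted p of a member was 0.653. Over oocytes, the r of the other members with diameter was 0.20 for BCL2L2, 0.12 for BCL2L11, 0.09 for BCL2L1, -0.01 for BAK1, -0.09 for BID and -0.20 for BAX (all the analysed oocytes, replicate means removed). For BCL2L1 it was 0.28 in replicate 1 and -0.08 in replicate 2.

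Within a group and replicate the members varied together only weakly. Over the 21 pairs of tested members, Pearson's r between oocytes ranged from -0.08 to 0.41 with a median of 0.28, after the mean of each group and replicate was removed. The highest was that of BAD with BCL2L1 and the lowest that of BCL2L2 with BCL2L11. Points of a pair share a library and its depth.

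The 2 genes with a symbol whose pattern over the 16 sums was most like that of BAD were C18H19orf33 and ADCK1, an atypical kinase of mitochondria. Pearson's r was 0.94 for C18H19orf33 and 0.94 for ADCK1, among 2935 genes compared, with each replicate centred on its own mean. The rest of the 14087 genes tested had no symbol in the lists used here and were not compared. C18H19orf33 stood at 26.4 and 20.0 CPM in A and at 96.2 and 78.5 CPM in H, and ADCK1 stood at 22.2 and 5.88 CPM in A and at 47.8 and 10.9 CPM in H. Among the members, BCL2L2 (0.73) and BCL2L11 (0.59) were most like BAD and BAX (0.14) least.

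The other genes of the pathway were taken from a list of 33 genes, of which 31 passed the filter. A trend was called in 13 of 31 (41.9%, against the 34.8% of all genes tested), with 6 higher and 7 lower in larger oocytes, and the median slope was -0.01 log2 per 10 μm. Among apoptosome genes, caspases and their inhibitors, 2 of 13 rose and 2 fell. Of 3 further family genes tested, 1 fell and 0 rose, and of the 12 partners of BCL2 family proteins, 3 rose and 4 fell. Among 3 kinases upstream of BAD or p53, 1 rose. BIRC7 and BBC3 did not pass the filter. The count was 6 without H of replicate 1, 8 without H of replicate 2 and 0 without the replicate block, fits that called a trend in 22.7%, 25.1% and 7.68% of all genes tested.

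BAG3, a co-chaperone that binds BCL2, fell by 0.17 log2 per 10 μm (SE 0.03; adjusted p = 0.000643 by edgeR) and BAG2, another co-chaperone of the same family, fell by 0.10 (SE 0.03; adjusted p = 0.00549). BNIP1, which acts in vesicle fusion at the endoplasmic reticulum, rose by 0.21 (SE 0.05; adjusted p = 0.00457), and BNIP2, a BCL2-interacting protein, rose by 0.12 (SE 0.03; adjusted p = 0.00818). Of the caspases, the executioner CASP6 rose by 0.13 (SE 0.03; adjusted p = 0.000968) and CASP9, the initiator that the apoptosome activates, fell by 0.26 (SE 0.07; adjusted p = 0.00849). CASP9 stood at 6.25, 27.2 and 7.26 CPM in A, C and H of replicate 1, and at 9.32, 5.11 and 0.466 CPM in replicate 2. The slope of BAD in the same fit was 0.35, a difference from these 6 genes that was not tested.

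**Figure D5:**
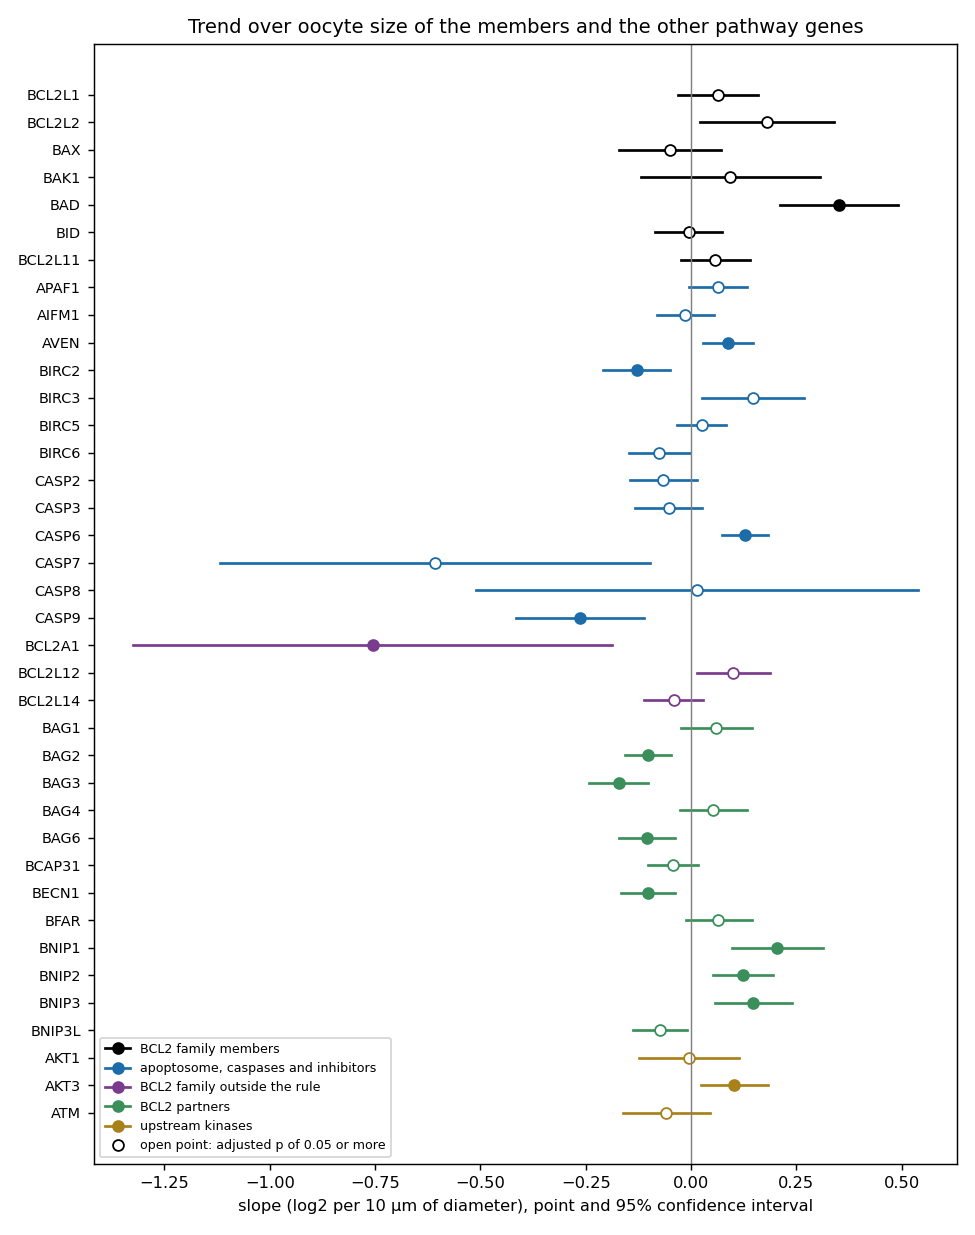
Slope over oocyte size in log2 per 10 μm (horizontal axis, point with its 95% confidence interval) for the 7 tested BCL2 family members (black) and the 31 tested genes of the pathway list (4 colours by class), with open points where the adjusted p was 0.05 or more. BAD stands at 0.35, and the filled points of the list lie on both sides of 0.

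Some counts could belong to a neighbour. In the RefSeq gene table of another build (ARS-UCD2.0, used for names and neighbours and not for coordinates), BAD overlaps GPR137, BAX overlaps TULP2, BCL2L2 overlaps PABPN1, BCL2L11 overlaps ACOXL, BCL2L1 overlaps a long non-coding RNA and BID a tRNA gene, while BAK1, BCL2 and BOK overlap none. How the counting treated strand and overlaps is not stated in the sources used here, so reads of these overlapping genes cannot be told apart.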

How the data were processed

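Members, lists, comparisons and alternatives were chosen with earlier results of these data known, and the thinned sums were added after seeing the data. Per the labels and the study's methods, the authors trimmed reads with Trim Galore 0.6.6, aligned them with HISAT2 to ARS-UCD1.2 and counted them per gene in SeqMonk. The deposited values are raw counts without molecular identifiers. Exact intervals of shares of oocytes are binomial, treat the oocytes as independent and leave out differences between animals and replicates. No column was left unused (0). Oocytes were matched by ID, and lines of an ID were summed (each member stands on 1 line).

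Counts were summed per size group and replicate (16 sums of the 165 oocytes, with 277126 to 8038061 counts each oocyte). edgeR 4.0.16 filtered them (filterByExpr, minimum count 10, minimum total 15), normalised them (TMM) and fitted 8 groups plus the replicate as a block (7 residual degrees of freedom). The quasi-likelihood test with Benjamini-Hochberg adjustment at 0.05 was used, and an SE is the size of the estimate over the square root of F. The trend weights each group by its mean diameter. The sums of a replicate deviated from their group means together (28 pairs, r from 0.576 to 0.836), and the study corrects the replicates as a batch. P-values measure the spread between sums, which may be technical, since animals are not named. Named genes are all members, the 6 list genes with the smallest trend p, and the 2 genes most like each member that differed among groups. Beside these stand cell type markers from fixed lists, of which those tested among stroma and granulosa markers are given with slopes, and the list genes that failed the filter.

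Alternatives were no replicate block, RLE normalisation, DESeq2 1.42.0, no filter, the oocyte as the unit (raw counts, or ComBat-seq counts from sva 3.50.0), all 179 oocytes, only the groups compared, each of the 16 sums left out, oocytes thinned to 250000 counts (0 left out), and other scales for values per oocyte. The code of the fit was also run on simulated sums, with the same spread for all genes and no single oocytes. That run bears on the code and not on these data. Software was Python 3.11.15 with matplotlib 3.10.9, scipy 1.17.1, pandas 2.3.3 and numpy 2.4.6, and R 4.3.3 with limma 3.58.1.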

Additional observations from a re-analysis of the deposited data

Results flagged for a closer look

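The study left out 14 deposited oocytes, with totals from 10 to 4933709 counts and 7 of them under 250000. Members had more than 3 counts in some of these oocytes, which the main comparisons do not use (they enter only the fits with all 179 oocytes). That held for BID in 6 of 14 oocytes, BCL2L2 in 5, BCL2L11 in 4, BAX in 3, BCL2L1 in 3, BAD in 2 and BAK1 in 2. The highest count was 228 for BID. BCL2 and BOK had 0 counts in all 14.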

How the results depend on the processing

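The number of members called did not change for A vs B, AB vs C, C vs DE, D vs E, DE vs F, G vs H and the trend by replicate (0 in each alternative), and the slope of BAD was called in all 24. For F vs G it was 1 with single oocytes as units (BID, against 37.0% of all genes). Fits on single oocytes, ComBat-seq included, treat oocytes of unnamed animals as replicates. Members differing among the 8 groups numbered 0 without the replicate block and with all 179 oocytes, 3 with single oocytes as units (BAD, BAK1 and BCL2L1, against 65.4% of all genes), 2 with ComBat-seq counts (BAD and BCL2L1, against 63.8%), and 0 to 1 with each sum left out (0 without H of replicate 1 or 2). Members with a trend numbered 2 with DESeq2 (BAD and BCL2L2, against 38.0% of all genes), 3 with ComBat-seq counts (BAD, BCL2L1 and BCL2L2, against 56.3%), and 1 to 2 with each sum left out. Without the replicate block, 0 of the other pathway genes had a trend, and 1082 of 14087 genes did. With ComBat-seq counts, 20 of 28 tested pathway genes had a trend, and with each sum left out 6 to 16 of the pathway genes did (6 without H of replicate 1 and 8 without H of replicate 2, against 22.7% and 25.1% of all genes). Members expressed in all groups numbered 3 at 250000 counts per oocyte, where the share of all gene IDs was not counted. Of 166 slopes of single members under alternatives, 161 kept their side of 0.05, 5 gained a call and 0 reversed a call. RLE normalisation moved the median slope of all genes from -0.02 to -0.01. The causes were not tested. At this depth BCL2 and BOK did not pass the filter on low counts. Only 2 sums per group bear on each step of growth.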
